A study of Mus musculus with 12 samples.

Results

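Acute phase proteins are a group of secreted and membrane-bound defense proteins whose genes are switched on during inflammation, and 8 of their genes, Saa3, Hp, Lcn2, Lbp, Orm1, Cp, Cd14, and Ptx3, were followed across 4 cytokine conditions in cultured mouse fibroblasts. The genes were chosen by symbol, with earlier results of these data known, from a count table of 56941 genes, and each symbol matched 1 row. Of the 8 genes, 7 had enough counts to be tested among 14810 genes, and Orm1 did not.

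The cells were 3T3-L1, an established mouse embryonic fibroblast line of wild-type genotype that can be driven to become adipocytes, and polyadenylated RNA was sequenced from 3 libraries in each condition. Control cells received vehicle according to the treatment label, although their library names call them untreated. IL-4/13 cells received IL-4 and IL-13, each at 50 ng/mL. Inf cells received a mixture of 20 ng/mL TNF-α, 50 ng/mL IL-17A, and 0.5 ng/mL IL-1β. IL-4/13 + Inf cells received all of these cytokines, and RNA was taken after 24 hours. The design asks whether type 2 cytokines change the response of a fibroblast to inflammatory cytokines. All libraries came from 1 cell line and carry 1 batch label. The labels do not say whether the 3 libraries of a condition came from separate cultures, so P values measure the spread between these libraries, which may be technical.

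In the liver, the acute phase response follows IL-1, TNF, and IL-6, which act through NF-κB, C/EBP factors, and STAT3 on the promoters of acute phase genes. Several of these proteins are also made outside the liver. Saa3 is a serum amyloid A, Lcn2 withholds iron from bacteria, haptoglobin and ceruloplasmin handle hemoglobin and copper, Lbp and Cd14 present bacterial lipopolysaccharide to TLR4, and Ptx3 is a soluble pattern recognition molecule. Fibroblasts and adipocyte precursors are among the cells outside the liver that can express them.

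Total counts were between 13446005 and 20775769 per library, and levels are given as CPM, the counts per 1000000 counts of a library whose total was adjusted by edgeR's TMM factor. Markers of the labeled cell type were abundant, with summed CPM of 10 fibroblast markers between 10625 and 16689, although Fap was at 3 or fewer counts in the libraries of 3 conditions. At most 3 counts were found for 6 of 8 adipocyte markers, including Adipoq and Plin1, for 7 or 8 of 12 leukocyte markers, including Adgre1, and for 7 or 8 of 8 hepatocyte markers, including Alb and Ttr. The pan-leukocyte gene Ptprc had 0 to 5 counts. The leukocyte markers Cd68, Csf1r, Lyz2, and Aif1 had enough counts to be tested. The summed leukocyte markers lay between 4.41 and 9.64 CPM, the hepatocyte markers between 0 and 0.804 CPM, and the adipocyte markers between 36.3 and 73.8 CPM, the last mostly Fabp4 and Pnpla2. Adipocyte markers summed to 36.3 to 41.2 CPM in control, 44.2 to 49.2 with IL-4/13, 70.6 to 73.8 with Inf, and 64.03 to 67.8 with both, and their part in the results below was not tested. Inf replicate 3 stood somewhat apart from the other Inf libraries, with a chi-square of 8.21 and 8.58 per gene against them, compared with 2.27 to 4.64 for all other pairs within a condition.

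All 7 tested acute phase genes were upregulated by Inf and remained upregulated when IL-4/13 was added, and 5 of them were lower with IL-4/13 + Inf than with Inf alone. Calls of higher or lower come from edgeR's quasi-likelihood test over all 14810 genes and need a log2 fold change beyond 0.25 together with an adjusted p (Benjamini-Hochberg) under 0.05. In Inf against control, 7 of 7 members were called higher, where 16.3% of all tested genes were, and none was called lower, where 15.3% of all genes were. Against control, IL-4/13 + Inf also had 7 of 7 called higher, beside 13.4% of all genes. Both comparisons share the control libraries. Saa3, Hp, Lcn2, and Lbp passed the filter on low counts only through the libraries with Inf, so these counts of 7 describe the genes and are no support for a response of the group. Between IL-4/13 + Inf and Inf, Saa3, Hp, Lcn2, Lbp, and Ptx3 were called lower, which is 5 of 7 beside 7.00% of all genes, and none was called higher, beside 7.55%. Lbp, with 7 to 31 counts per library with IL-4/13 + Inf, passed the filter only through the Inf libraries, where it was high. Its fall is therefore no support for a fall of the group. The members and the related lists below were chosen with earlier results of these data known. Their counts of calls are therefore descriptions and no support for a response of a group. With IL-4/13 alone, Cp was called higher, beside 2.78% of all genes, and Ptx3 lower, beside 2.57%, while Saa3, Hp, Lcn2, and Lbp were too close to 0 for a small response to be detectable. The median log2 fold change of the 7 genes was 5.84 in Inf against control, −0.62 in IL-4/13 + Inf against Inf, and 0.46 in IL-4/13 against control, and the medians over all tested genes lay between −0.01 and 0.01. The value of 0.46 is that of Cp. Those of Saa3, Hp, Lcn2, and Lbp in IL-4/13 against control rest on very low counts, so this median does not show a rise of the group. Fibroblast markers moved as well, with 5 of 9 tested (Col3a1, Pdgfra, Pdgfrb, Dcn, and Lum) called lower in IL-4/13 + Inf against Inf. This was beside 7.00% of all genes, and none was called higher, beside 7.55%. In Inf against control, Pdgfra, Pdgfrb, Dcn, and Lum were called higher, beside 16.3%, and Col1a1, Col1a2, Vim, and Thy1 lower, beside 15.3%. The fibroblast markers summed to 12639 to 13657 CPM with Inf and 10625 to 10867 CPM with both. Of 4 tested leukocyte markers, Lyz2 and Aif1 were called lower in IL-4/13 + Inf against Inf, beside 7.00% of all genes. Aif1 was called higher in Inf against control, beside 16.3%. Leukocyte sums were 8.62 to 9.64 CPM with Inf and 4.41 to 8.04 CPM with both. The part of these markers in the falls of the acute phase genes was not tested. In bulk RNA, fewer cells that express a gene and less RNA of it per cell cannot be told apart.

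**Figure D1:**
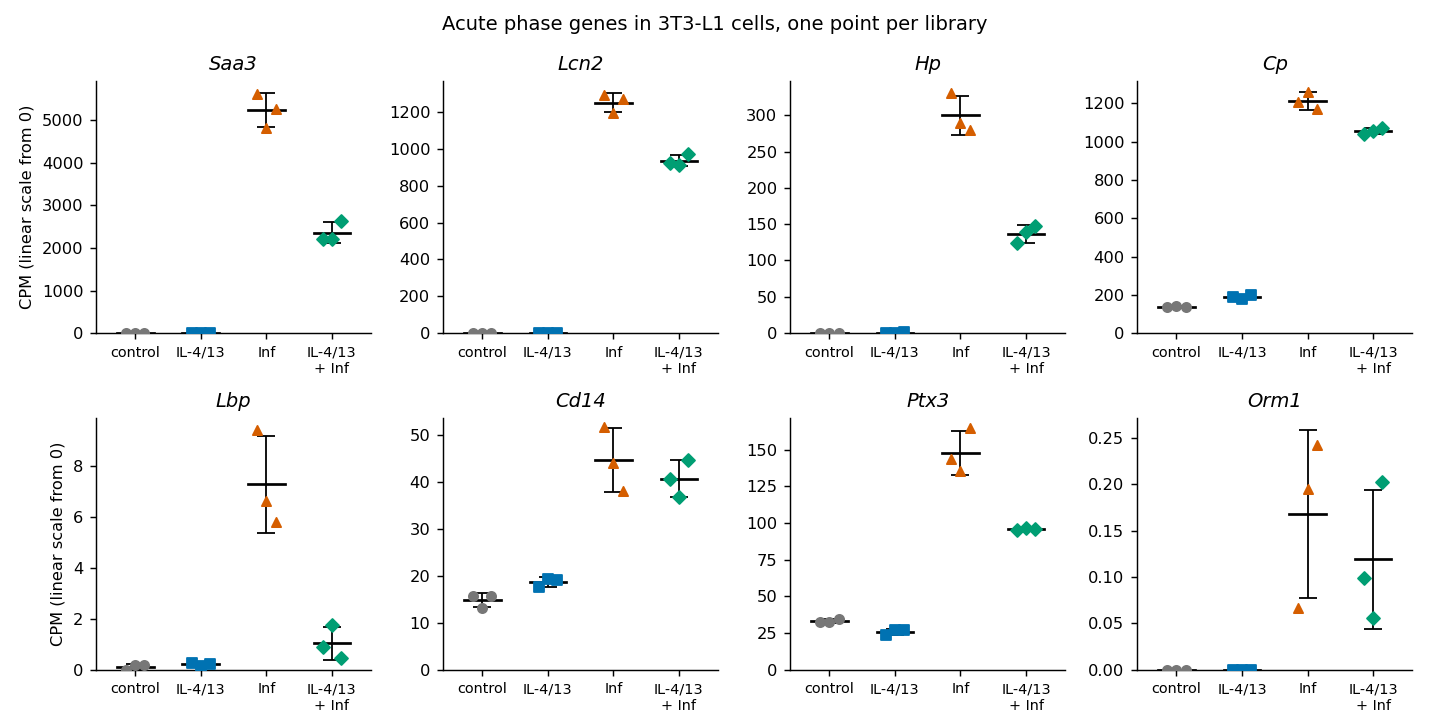
CPM of each acute phase gene on linear axes that start at 0, with 1 point per library, a bar at the mean of the condition, and error bars of 1 SD over 3 libraries. Every gene was higher with Inf than without it, and the libraries with IL-4/13 + Inf lay below all Inf libraries for Saa3, Lcn2, Hp, Cp, Lbp, and Ptx3 but overlapped them for Cd14 and Orm1.

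The promoters of 4 of these genes, Saa3, Lcn2, Cp, and Ptx3, are in the RefSeq promoter table for GRCm38.p6, and they are shown because the genes rose together with Inf. Hp, Lbp, Orm1, and Cd14 are not shown. Each sequence is the 250 bases before the annotated start of transcription, written 5′ to 3′ on the strand of the gene. Capitals mark letters that match a C/EBP motif (TTGCNNAA), a STAT motif with a spacer of 3 or 4 bases (TTCNNNGAA or TTCNNNNGAA), an AP-1 motif (TGANTCA), or the NF-κB consensus, each searched on both strands.
Saa3, chr7:46715677-46715926, minus strand: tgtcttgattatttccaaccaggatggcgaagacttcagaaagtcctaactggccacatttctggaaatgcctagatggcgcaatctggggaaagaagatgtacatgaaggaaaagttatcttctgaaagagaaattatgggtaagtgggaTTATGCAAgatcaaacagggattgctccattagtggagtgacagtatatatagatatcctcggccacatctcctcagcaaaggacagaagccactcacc
Lcn2, chr2:32387740-32387989, minus strand: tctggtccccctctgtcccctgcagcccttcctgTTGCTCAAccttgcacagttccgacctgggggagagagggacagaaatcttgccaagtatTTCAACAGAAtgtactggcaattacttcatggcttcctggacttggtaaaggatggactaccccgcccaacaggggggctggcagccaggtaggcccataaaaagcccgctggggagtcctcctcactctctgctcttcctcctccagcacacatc
Ptx3, chr3:66219637-66219886, plus strand: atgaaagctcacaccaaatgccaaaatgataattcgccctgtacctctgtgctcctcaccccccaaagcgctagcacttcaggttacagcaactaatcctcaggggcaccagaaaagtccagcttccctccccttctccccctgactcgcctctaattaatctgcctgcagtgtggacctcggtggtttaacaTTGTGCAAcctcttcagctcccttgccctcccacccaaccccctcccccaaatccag
Cp, chr3:19956999-19957248, plus strand, the downstream one of 2 annotated starts: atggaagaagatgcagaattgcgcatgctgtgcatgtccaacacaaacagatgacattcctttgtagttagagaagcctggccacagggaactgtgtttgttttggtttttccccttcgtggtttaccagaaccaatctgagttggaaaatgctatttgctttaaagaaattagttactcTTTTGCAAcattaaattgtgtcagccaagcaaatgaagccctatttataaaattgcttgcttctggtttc

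A C/EBP match was found in each of the 4 printed windows, which is 4 of the 5 windows of these genes. It was found in 9.57% of all 32841 promoter windows of the same length. It lay 99 to 92 bases before the start in Saa3, 216 to 209 bases before it in Lcn2, 57 to 50 bases before it in Ptx3, and 70 to 63 bases before it in Cp. Lcn2 also held a match to the STAT motif with the 4-base spacer, TTCAACAGAA, from 156 to 147 bases before the start, a motif found in 5.85% of all windows. It did not overlap the C/EBP match. The window at the upstream start of Cp, which overlaps the one printed, held an AP-1 match and no C/EBP match, and AP-1 matches were found in 6.75% of all windows. The NF-κB consensus, held by 7.25% of all windows, and the STAT motif with the 3-base spacer, held by 7.02%, had no match in these windows. These are matches of letters, and binding was not measured.

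Saa3 had the largest fold change of the 14810 tested genes in Inf against control and reached less of that level when IL-4/13 was added. Saa3 is a serum amyloid A of macrophages, adipose tissue, and fibroblasts. It had 7, 4, and 2 counts in the control libraries, which is 0.400, 0.248, and 0.120 CPM, and 2, 2, and 6 counts in the IL-4/13 libraries, which is 0.107, 0.130, and 0.441 CPM. With Inf it reached 5628, 4829, and 5276 CPM, and with IL-4/13 + Inf it reached 2213, 2218, and 2644 CPM. The libraries without Inf were near the limit of detection and overlapped, and every IL-4/13 + Inf library lay below every Inf library. The log2 fold change was 14.27 ± 0.19 (SE, adjusted p = 6.44e-13) in Inf against control. Because the control rests on 13 counts in all, the ratio of the pooled counts, 20121, has an exact 95% interval of 11766 to 37789 from counting error alone. In IL-4/13 + Inf against Inf, Saa3 fell by 1.15 ± 0.09 on the log2 scale to 0.450 times the Inf level (95% confidence interval 0.393 to 0.514, adjusted p = 5.87e-06). IL-4/13 against control gave −0.29 (95% confidence interval −2.37 to 1.79, adjusted p = 0.913), an interval too wide to show whether IL-4/13 acts on Saa3 without Inf. The longest Saa3 transcript shares 3.91% of its 50-base stretches with 244 other genes, and Saa1 shares 9 such stretches with it.

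Among the genes for iron and hemoglobin, Lcn2 and Hp behaved like Saa3 in that both were nearly silent without Inf, and both were lower with IL-4/13 + Inf than with Inf. Lcn2, or lipocalin 2, binds bacterial siderophores. It had 2, 5, and 2 counts in control (0.114, 0.310, and 0.120 CPM) and 7, 1, and 5 counts in IL-4/13 (0.375, 0.0648, and 0.368 CPM). It rose to 1290, 1193, and 1272 CPM with Inf and was 925, 914, and 972 CPM with IL-4/13 + Inf. The groups with Inf did not overlap each other or those without it. Its log2 fold change in Inf against control, 12.71 ± 0.11 (adjusted p = 7.14e-35), ranked 2 of 14810, and the ratio of pooled counts was 6963 (exact 95% interval 3668 to 15229). Adding IL-4/13 to Inf lowered it to 0.748 times the Inf level (95% confidence interval 0.700 to 0.800, log2 fold change −0.42 ± 0.05, adjusted p = 8.61e-08). The interval did not overlap that of Saa3, although the difference between the genes was not tested.

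Hp encodes haptoglobin, which captures free hemoglobin. Its counts were 5, 4, and 6 in control (0.286, 0.248, and 0.360 CPM) and 8, 4, and 12 in IL-4/13 (0.429, 0.259, and 0.882 CPM). Hp reached 331, 289, and 280.4 CPM with Inf and 124, 139, and 147 CPM with IL-4/13 + Inf, again with no overlap. The log2 fold change in Inf against control was 9.94 ± 0.16 (adjusted p = 2.41e-21), rank 7 of 14810, and the ratio of pooled counts was 1000.4 (exact 95% interval 606 to 1788). Hp fell by 1.14 ± 0.07 on the log2 scale in IL-4/13 + Inf against Inf, to 0.455 times the Inf level (95% confidence interval 0.411 to 0.503, adjusted p = 2.30e-10), an interval that lies within that of Saa3. In IL-4/13 against control the log2 fold change was 0.74 (95% confidence interval −0.40 to 1.88, adjusted p = 0.498). The interaction, which subtracts the response to IL-4/13 in the absence of Inf from that in its presence, was −1.88 ± 0.55 for Hp (adjusted p = 0.0736) and was not called. It was called by DESeq2 (adjusted p = 0.00385), without a filter on low counts (0.00488), and when IL-4/13 replicate 2 (0.0303), Inf replicate 1 (0.0320), or IL-4/13 + Inf replicate 1 (0.0427) or 3 (0.0438) was left out, and over all alternatives the adjusted p ran from 0.00385 to 0.323.

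Cp, the copper-carrying ferroxidase ceruloplasmin, was expressed at rest and rose with IL-4/13 alone. Cp was at 134, 141, and 137 CPM in control cells and at 188, 178, and 201 CPM with IL-4/13. It was at 1206, 1261, and 1172 CPM with Inf and at 1040, 1059, and 1071 CPM with both. No 2 conditions overlapped. IL-4/13 raised Cp 1.37-fold (95% confidence interval 1.29 to 1.46, adjusted p = 7.75e-09), and Inf raised it 8.82-fold (95% confidence interval 8.27 to 9.42, adjusted p = 2.53e-30). IL-4/13 + Inf gave 0.871 times the Inf level (95% confidence interval 0.821 to 0.924), and although its adjusted p was 5.57e-04, the log2 fold change of −0.20 was within 0.25 of 0 and Cp was not called. The interaction was −0.66 ± 0.06 (adjusted p = 1.60e-08), called lower beside 1.59% of all genes, and was called in 12 of 12 fits that left out 1 library. In CPM, the 2 separate rises added to the control level would give 1264, and the IL-4/13 + Inf mean was 1056 ± 15 (SD, n = 3).

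Of the 2 genes for lipopolysaccharide recognition, Lbp showed the deepest fall of the group with IL-4/13 and Cd14 showed none that could be called. Lbp encodes the serum protein that transfers lipopolysaccharide to CD14. It had 0, 3, and 3 counts in control and 5, 2, and 3 counts in IL-4/13, then 142, 136, and 96 counts with Inf (9.44, 6.62, and 5.82 CPM), and 18, 31, and 7 counts with IL-4/13 + Inf (0.893, 1.74, and 0.472 CPM). The IL-4/13 + Inf libraries lay between those of Inf and those without Inf, with no overlap. Lbp rose in Inf against control (log2 fold change 5.84 ± 0.46, adjusted p = 3.77e-11), with a ratio of pooled counts of 60.2 (exact 95% interval 27.4 to 165). It fell by 2.77 ± 0.31 in IL-4/13 + Inf against Inf, to 0.146 times the Inf level (95% confidence interval 0.0937 to 0.228, adjusted p = 1.65e-07), which ranked 2 from the lowest of 14810 genes. Lbp passed the filter on low counts only through the Inf libraries, where it was high, so this rank is a description. IL-4/13 + Inf remained above IL-4/13 (log2 fold change 2.29 ± 0.56, adjusted p = 0.00197). The interaction was called lower at −3.55 ± 0.98 (adjusted p = 0.0407), on counts of 0 to 5 in the 6 libraries without Inf. It was not called when control replicate 1, 2, or 3 (adjusted p = 0.0948, 0.0547, and 0.0620), IL-4/13 replicate 1, 2, or 3 (0.247, 0.0643, and 0.136), or IL-4/13 + Inf replicate 1 (0.090) was left out, the range over all alternatives being 0.00243 to 0.247, and DESeq2 gave no adjusted p for it.

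Cd14, the coreceptor that hands lipopolysaccharide to TLR4 and MD-2, was measured at 15.7, 13.1, and 15.8 CPM in control cells and at 17.6, 19.4, and 19.0 CPM with IL-4/13. It was at 51.8, 44.1, and 38.2 CPM with Inf and 40.6, 36.9, and 44.7 CPM with IL-4/13 + Inf, and these last groups overlapped. Inf raised Cd14 3.00-fold (95% confidence interval 2.59 to 3.47, adjusted p = 1.52e-12). The ratio of IL-4/13 + Inf to Inf was 0.911 (95% confidence interval 0.799 to 1.04, adjusted p = 0.329), an interval that does not hold the Lcn2 estimate of 0.748. The difference between these genes was not tested. With 1 library left out, the log2 fold change of Cd14 ran from −0.23 to −0.02 (adjusted p = 0.0471 to 0.916) and was never called. All IL-4/13 libraries lay above all control libraries, with a ratio of 1.25 (95% confidence interval 1.07 to 1.47), but the adjusted p was 0.0760. It was called when only the groups compared were fitted (adjusted p = 0.0261), with no filter on low counts (0.0145), and without Inf replicate 1 (0.0339) or Inf replicate 3 (0.0250), in a range of 0.0145 to 0.246 over all alternatives. The interaction was −0.46 ± 0.15 (adjusted p = 0.0897), and it was called with no filter (0.0118) and without Inf replicate 3 (0.00611), in a range of 0.00611 to 0.215.

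Ptx3 encodes a long pentraxin that binds microbes, complement C1q, and hyaluronan-bound matrix proteins, and it was the 1 member called lower on adding IL-4/13 both with and without Inf. Without Inf, Saa3, Hp, Lcn2, and Lbp were too close to 0 for a small fall to be detectable. Ptx3 was at 32.4, 32.8, and 34.9 CPM in control cells and at 23.6, 27.0, and 27.0 CPM with IL-4/13, with all IL-4/13 libraries below all control libraries. It was at 143, 136, and 165 CPM with Inf and 95.6, 96.5, and 96.1 CPM with IL-4/13 + Inf. IL-4/13 lowered Ptx3 to 0.772 times control (95% confidence interval 0.693 to 0.860, adjusted p = 0.00117). It was 4.43-fold higher in Inf than in control (95% confidence interval 4.03 to 4.87, adjusted p = 6.96e-22). On adding IL-4/13 to Inf it fell to 0.650 times the Inf level (95% confidence interval 0.596 to 0.708, adjusted p = 4.01e-09). The interaction was −0.25 (95% confidence interval −0.45 to −0.05, adjusted p = 0.192), so a difference between the 2 responses was not shown.

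Orm1, which encodes the plasma glycoprotein orosomucoid, was at 0 counts in all 6 libraries without Inf. It had 1, 4, and 4 counts with Inf and 2, 1, and 3 counts with IL-4/13 + Inf. These counts are too few for a test or a fold change, and 20.4% of the 50-base stretches of Orm1 are shared with its relatives Orm2 and Orm3.

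**Figure D2:**
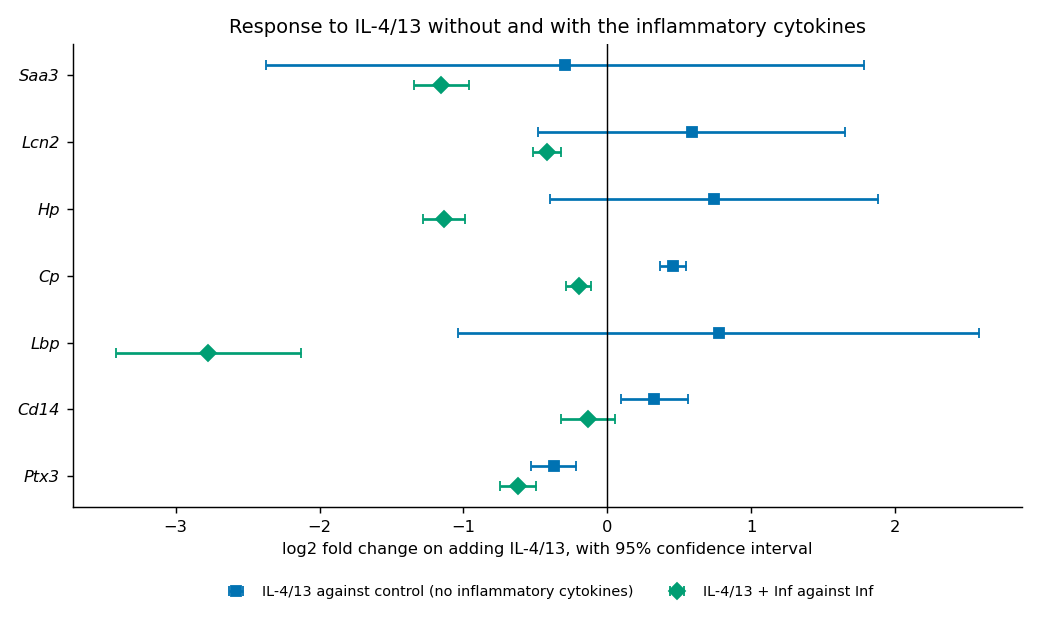
Log2 fold change (horizontal axis) on adding IL-4/13 without Inf (squares) and with Inf (diamonds) for the 7 tested genes, with 95% confidence intervals. With Inf, the intervals of Saa3, Lcn2, Hp, Cp, Lbp, and Ptx3 lay below 0, and without Inf those of Saa3, Lcn2, Hp, and Lbp, each with 0 to 12 counts per library, spanned 0.

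Adding Inf to IL-4/13 also raised 7 of 7 tested members, beside 13.3% of all genes, a count that is no support for the reason given above, with log2 fold changes from 1.12 for Cd14 to 13.41 for Saa3. The interaction was called lower for Lbp and Cp, as given above, and higher for none, beside 1.52% of all genes. As a share of the reads of the 8 genes together, Saa3 took 63.8% ± 1.4 with Inf and 50.9% ± 2.0 with IL-4/13 + Inf (SD, n = 3), and Lcn2 took 15.3% ± 0.32 and 20.3% ± 0.67. Together the 8 genes summed to 187 ± 2.9 CPM in control cells, 235 ± 12.6 with IL-4/13, 8210 ± 450.2 with Inf, and 4626 ± 302 with both (SD, n = 3). Most of the difference between the last of these was Saa3, with means of 2359 ± 247 CPM with both and 5245 ± 400.3 CPM with Inf, and Lcn2 followed with 937 ± 30.5 against 1252 ± 51.6 CPM.

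Levels of different genes were compared per kilobase of the longest annotated transcript in GENCODE M21. In control, Cp was highest at 30.1 ± 0.71 CPM per kb, followed by Ptx3 at 17.6 ± 0.70 and Cd14 at 9.06 ± 0.91, with no overlap between libraries. With IL-4/13 the same genes led, Cp at 41.4, Ptx3 at 13.6, and Cd14 at 11.4 CPM per kb. Hp, Lcn2, Saa3, and Lbp were between 0.0483 and 0.222 CPM per kb in control, and neighbors in that order overlapped. With Inf the order was Saa3 at 2384 ± 182, Lcn2 at 911 ± 37.5, Cp at 266 ± 9.9, Hp at 223 ± 20, Ptx3 at 78.0 ± 7.9, Cd14 at 27.2 ± 4.1, Lbp at 2.89 ± 0.75, and Orm1 at 0.217 ± 0.12 CPM per kb (SD, n = 3), and no neighbors overlapped. The order was the same with IL-4/13 + Inf, from 1072 ± 112 for Saa3 and 682 ± 22.2 for Lcn2 down to 0.410 ± 0.26 for Lbp and 0.154 ± 0.10 for Orm1, and Lbp and Orm1 then overlapped. With the longest protein-coding transcript, Lcn2 was at 1024 ± 33.4 CPM per kb in IL-4/13 + Inf, within the spread of Saa3 at 1072 ± 112. With the mean length of the annotated transcripts, however, Lcn2 was at 1012 and Saa3 at 2178 CPM per kb in that condition.

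**Figure D3:**
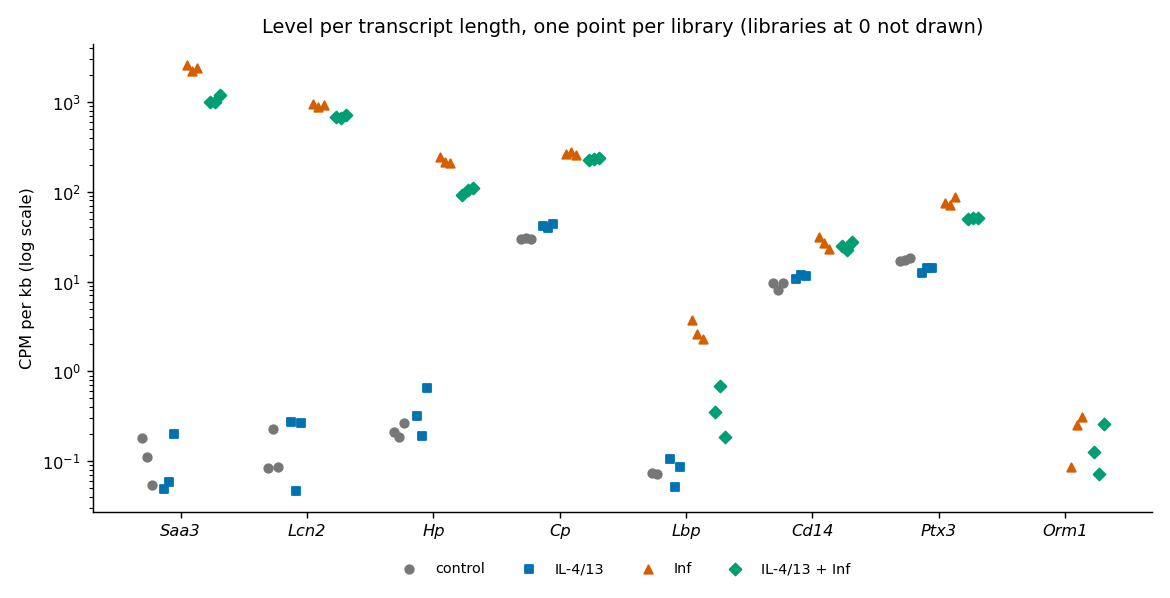
CPM per kb of the longest annotated transcript for each gene, on a log scale, with 1 point per library and libraries at 0 left out. Cp, Ptx3, and Cd14 had levels from 9.06 to 30.1 CPM per kb in control, whereas Saa3, Lcn2, Hp, and Lbp were at 0.222 or below there and at 2.89 to 2384 with Inf.

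The close relatives of the members had low counts or were not tested, except Nptxr and Heph. Of 13 paralogues, 5 were tested. Saa1, Saa2, and Saa4, which also passed the filter only through libraries with Inf, were called higher in Inf against control, beside 16.3% of all genes. Nptxr, a neuronal pentraxin receptor, was called lower there, beside 15.3% (log2 fold change −0.44 ± 0.07, adjusted p = 2.86e-06). Heph, the membrane-bound relative of ceruloplasmin, was not called (0.04, adjusted p = 0.636). Saa1 was at 0 counts in all 6 libraries without Inf, at 20, 28, and 15 counts with Inf, and at 10, 10, and 5 counts with IL-4/13 + Inf. Saa2 was also at 0 without Inf, at 23, 20, and 13 counts with Inf, and at 10, 10, and 2 with IL-4/13 + Inf. Against a limit of 3 counts per library, Inf raised Saa1 at least 6.70-fold, Saa2 at least 6.12-fold, and Saa4 at least 4.17-fold. In IL-4/13 + Inf against Inf, Saa1 and Saa2 were called lower (log2 fold changes −1.34 ± 0.44 and −1.38 ± 0.49, adjusted p = 0.0274 and 0.0456), and Saa4 was not (−0.49, adjusted p = 0.526). This is 2 of 5 lower beside 7.00% of all genes, and none was called higher, beside 7.55%. Saa1 and Saa2 passed the filter only through the Inf libraries, where they were high, so their falls are no support for a fall of the list. Saa1 shares 31.7% of its 50-base stretches with Saa2, so reads of these genes are uncertain. The pentraxins Crp, Apcs, Nptx1, and Nptx2 and the lipopolysaccharide-binding relative Bpi were not tested because of low counts.

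Genes that induce or carry the acute phase signal did not move in 1 direction on adding IL-4/13 to Inf. Of 20 such genes, all tested, 15 were called higher and 1, Cebpa, lower in Inf against control, beside 16.3% and 15.3% of all genes. With IL-4/13 against control, 6 were higher and 1 lower, beside 2.78% and 2.57%. In IL-4/13 + Inf against Inf, 5 were called lower and 4 higher, beside 7.00% and 7.55% of all genes, and the median log2 fold change was −0.04 beside −0.01 over all tested genes. The 5 that fell were Cebpb (−0.53 ± 0.09, adjusted p = 1.80e-04) and Cebpd (−0.50 ± 0.09, adjusted p = 0.00256), both C/EBP transcription factors, Nfkbiz (−0.43 ± 0.07, adjusted p = 1.87e-04), a nuclear cofactor of NF-κB, Stat3 (−0.26 ± 0.05, adjusted p = 1.59e-04), and the oncostatin M receptor Osmr (−0.30 ± 0.05, adjusted p = 7.04e-05). Cebpd was at 366, 282, and 341 CPM with Inf and 231, 244, and 224 CPM with IL-4/13 + Inf, without overlap. Cebpb was between 53.5 and 71.2 CPM with Inf and at 42.4, 46.0, and 42.2 CPM with both. The 4 that rose were Nfkb1 (0.88 ± 0.04, adjusted p = 3.08e-16), which encodes the p50 subunit of NF-κB, the shared receptor of the IL-6 family Il6st (0.48 ± 0.05, adjusted p = 5.16e-09), the IL-6 family ligand Lif (0.48 ± 0.05, adjusted p = 6.93e-08), and the IL-1 receptor Il1r1 (0.48 ± 0.05, adjusted p = 6.14e-08). Il6 itself was at 109, 105, and 117 CPM with Inf and 123, 126, and 117 CPM with IL-4/13 + Inf, and was not called (0.14 ± 0.06, adjusted p = 0.107). The interaction was called lower for Nfkb1 (−0.32 ± 0.06, adjusted p = 8.48e-04), Osmr (−0.46 ± 0.08, adjusted p = 2.99e-04), and the IL-6 receptor Il6ra (−0.42 ± 0.12, adjusted p = 0.0441).

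Receptors and partners of the member proteins were tested for 12 of 16 genes. Beside 16.3% of all genes, 5 were called higher in Inf against control, namely Tlr4, its partner Ly96 (MD-2), Tlr2, the adaptor Myd88, and the Ptx3 partner Tnfaip6, and 1, the iron exporter Slc40a1 that works with ceruloplasmin, was called lower, beside 15.3% (−1.47 ± 0.12, adjusted p = 7.06e-12). On adding IL-4/13 to Inf, 3 were called lower and none higher, beside 7.00% and 7.55% of all genes, with a median log2 fold change of −0.24 beside −0.01 over all tested genes. Tlr2, the receptor for bacterial lipoproteins, was at 301, 278, and 283 CPM with Inf and 147, 138, and 136 CPM with IL-4/13 + Inf (−1.04 ± 0.05, adjusted p = 5.18e-15), and its interaction was called as well (−0.96 ± 0.09, adjusted p = 7.41e-09). Slc40a1 (−0.76 ± 0.14, adjusted p = 1.61e-04) and the Ptx3-bound growth factor Fgf2 (−0.77 ± 0.21, adjusted p = 0.00724) were the others. Tlr4 rose with IL-4/13 alone (0.72 ± 0.10, adjusted p = 6.57e-06) and not detectably on top of Inf (0.19 ± 0.09, adjusted p = 0.115), and its interaction was called lower (−0.53 ± 0.13, adjusted p = 0.0188). The haptoglobin receptor Cd163 was not tested because of low counts.

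Other genes of the positive acute phase response were lowered in some cases and raised in others by IL-4/13 in the presence of Inf. Of 13 genes, 6 were tested, and 6 of 6 were called higher in Inf against control, beside 16.3% of all genes. Without Inf, Cfb had 0 to 2 counts, Hpx 2 to 13 counts, and Serpina3n 0 to 30 counts per library. All of them passed the filter on low counts only through libraries with Inf, so the count of 6 is no support for a response of the list. In IL-4/13 + Inf against Inf, 3 fell and 3 rose, beside 7.00% and 7.55% of all genes. Hpx and Cfb, with 16 and 22 pooled counts with IL-4/13 + Inf, passed the filter only through the Inf libraries, where they were high. Their falls are therefore no support for a fall of the list. The genes that fell were Hpx, the heme-binding hemopexin (−1.71 ± 0.56, adjusted p = 0.0252), complement factor B Cfb (−1.80 ± 0.44, adjusted p = 0.00271), and the C1 inhibitor Serping1 (−0.86 ± 0.14, adjusted p = 3.82e-05). The genes that rose were complement C3 (0.72 ± 0.07, adjusted p = 7.37e-06), the protease inhibitor Serpina3n (3.53 ± 0.29, adjusted p = 1.20e-09), and the IL-1 receptor antagonist Il1rn (0.57 ± 0.16, adjusted p = 0.00977). C3 was at 833, 745, and 644 CPM with Inf and 1198, 1223, and 1248 CPM with IL-4/13 + Inf, opposite in direction to Saa3 in the same libraries. With IL-4/13 alone, C3 rose 7.16-fold over control (log2 fold change 2.84 ± 0.12, adjusted p = 2.77e-09), and Serpina3n rose from 2, 0, and 0 counts to 17, 8, and 30 counts (4.64 ± 0.75, adjusted p = 1.25e-04). The interaction was called lower for C3 (−2.12 ± 0.15, adjusted p = 2.02e-06), the fold response to IL-4/13 being smaller with Inf than without it. In CPM the rise of C3 was larger with Inf, from a mean of 741 to 1223, than without it, from 6.09 to 43.8. For Serpina3n the interaction was not called (−1.10 ± 0.98, adjusted p = 0.702). Fibrinogen genes were at 0 counts, and none of 8 negative acute phase genes, whose liver expression falls in inflammation, had enough counts to be tested.

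**Figure D4:**
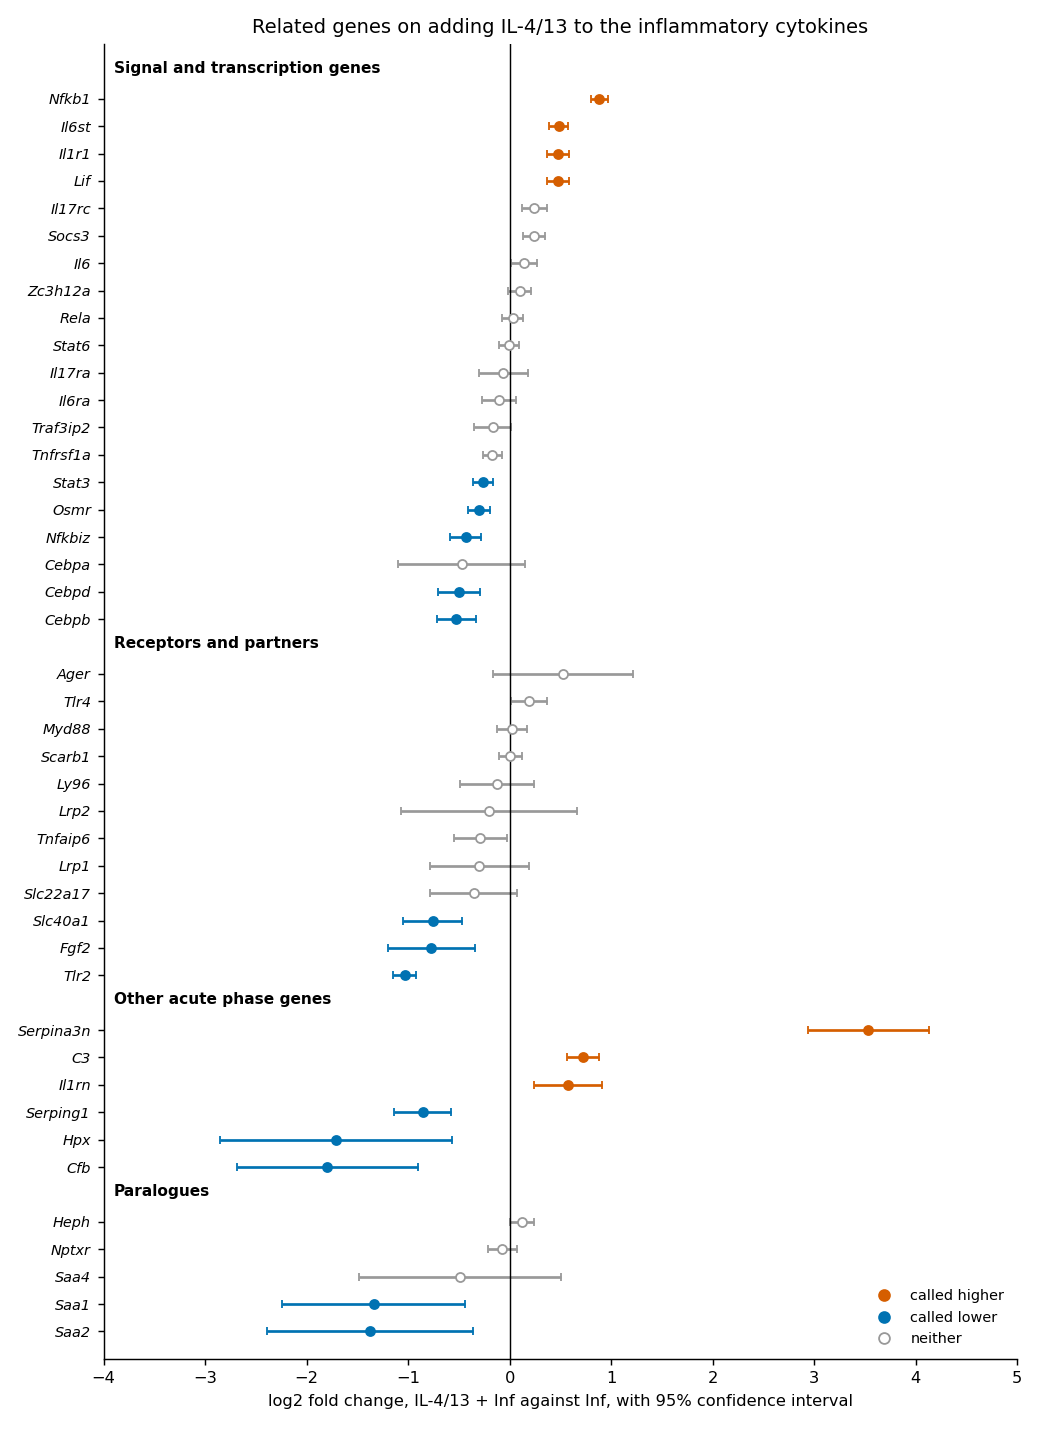
Log2 fold change in IL-4/13 + Inf against Inf (horizontal axis) with 95% confidence intervals for every tested gene of the 4 related lists, with filled points for called genes and open points for the others. Called genes lay on both sides of 0 among the signal and transcription genes (4 higher, 5 lower) and the other acute phase genes (3 higher, 3 lower). They lay below 0 among receptors and partners (3 of 12 lower) and paralogues (2 of 5 lower). Over all tested genes, 7.00% were called lower and 7.55% higher. The called paralogues, Saa1 and Saa2, passed the filter on low counts only through the Inf libraries.

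The genes most like each member were named by Pearson's r of log2 CPM over the 12 libraries, among 11222 other genes, as a description. The libraries with and without Inf form separate clusters, which these values share. For Saa3 they were Mmp3, Slpi, and Sod2 (r from 0.998 to 0.999), for Lcn2 Ccl3, Dcn, and Csf3 (0.997 to 0.998), for Hp Ptges, Tnip1, and Mapkapk2 (0.997 to 0.998), and for Cp Mmp9, Tmem176a, and Tmem176b (0.998 to 0.999). For Ptx3 they were P4ha2, C1s1, and Bsg (0.995 to 0.996), for Cd14 Sbno2, Ppard, and Stom (0.988), and for Lbp Hsd17b11, Nipal3, and Cyp4v3 (0.964 to 0.974). Between members, r ran from 0.837 for Lbp and Cd14 to 0.996 for Saa3 and Hp. Spearman's rho gave other genes for every member.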

How the data were processed

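The authors extracted RNA with a PureLink kit, made stranded mRNA libraries, and deposited a table of raw read counts per gene, with no normalization applied. The submitters' processing notes name STAR, featureCounts, and GRCm39. Versions and the treatment of reads that match several genes are not given in the sources used here. From the deposited counts, genes with low counts were removed by filterByExpr (at least 10 counts by condition and 15 in total), the rest were scaled by TMM and fitted with a robust quasi-likelihood model of all 12 libraries with 1 term per condition (R 4.3.3, edgeR 4.0.16, limma 3.58.1), with Benjamini-Hochberg adjustment of each contrast over all tested genes. CPM use the effective library size. DESeq2 1.42.0, which the study's methods name, was an alternative. Exact intervals of pooled counts are Clopper-Pearson intervals and cover counting error only.

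The 8 members and the related gene lists were chosen with earlier results of these data known. Beside the members, values are given for list genes called in IL-4/13 + Inf against Inf or with an interaction, for paralogues, and for the 3 genes most like each member, among genes whose mean reached 5 CPM in any condition (log2 CPM with a prior count of 2). Fap, Il6, Heph, the Inf responses and the untested genes named for a list were added after their values were seen. A further related gene was taken out of the lists and is not reported here. Transcript lengths and shared 50-base stretches came from GENCODE M21 and promoters from RefSeq, both on GRCm38 and matched by gene symbol, and no position was carried to GRCm39. The alternatives were DESeq2, RLE size factors or library size in place of TMM, no filter or a mean of at least 50 counts, a fit of only the groups compared, the replicate number as a block, leaving out each library in turn, a log2 fold change threshold of 1, an adjusted p of 0.01, and other transcript lengths, of which the protein-coding length was chosen after seeing the data. The single-cell data were not analysed here. Sequences and figures were handled in Python 3.11.15 with numpy 2.4.6, pandas 2.3.3, and matplotlib 3.10.9.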

Additional observations from a re-analysis of the deposited data

Results flagged for a closer look

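For Cp, the response to IL-4/13 differed between cells with and without Inf, by −0.66 on the log2 scale (adjusted p = 1.60e-08, edgeR). Cp was higher with IL-4/13 than in control and lower, within the fold threshold, with IL-4/13 + Inf than with Inf, in 3 of 3 libraries against every library of the other group in both cases.

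For Lbp, the interaction was also called, at −3.55 on the log2 scale (adjusted p = 0.0407, edgeR). This difference rests on 0 to 5 counts in each library without Inf. The call was kept in 5 of 12 fits that left out 1 library, and DESeq2 gave no adjusted p, so a difference between the responses is uncertain. No condition had enough libraries for a test of single libraries that stand apart.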

How the results depend on the processing

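No log2 fold change of a member that was called changed sign under any alternative, and 800 of 820 recomputed log2 fold changes of members kept their call. That tally leaves out the log2 fold change threshold of 1, which removed further calls, as given below. Saa3 in IL-4/13 against control, which was not called, ran from −1.09 to 0.19 when 1 library was left out. The 7 rises in the comparisons with Inf and the 5 falls in IL-4/13 + Inf against Inf were called in every fit in which the gene was tested, except that a log2 fold change threshold of 1 left 3 falls (Saa3, Hp, and Lbp). Lbp was not tested at a mean of at least 50 counts, nor in the fits of only IL-4/13 + Inf with control or with IL-4/13. That threshold also left 0 members higher and 0 lower in IL-4/13 against control, 1 lower for the interaction, and fewer genes called in all, namely 108 (IL-4/13 against control), 1095 (Inf against control), 1096 (the combination against control), 238 (the combination against Inf), 936 (the combination against IL-4/13), and 40 (interaction). In IL-4/13 against control, 2 members were higher with no filter and with only the groups compared, and 1 to 2 when 1 library was left out. For the interaction, 4 members were lower with no filter, 1 at a mean of at least 50 counts, which removes Lbp from the test, 1 at an adjusted p below 0.01, where 277 genes were called in all, and 1 to 3 when 1 library was left out. DESeq2 gave no adjusted p for the interaction of Lbp. Levels per kb moved with the transcript length used.

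Replicate numbers did not pair the libraries. The correlation of deviations between same-numbered libraries of different conditions was −0.146 to 0.054 over 18 pairs, and 0 of 12 libraries correlated best with their own number. With the replicate block, 717, 4619, 3610, 2069, 3516, and 410 genes were called in these 6 contrasts, in that order, and the calls of the members were 7 higher in Inf against control and 5 lower in IL-4/13 + Inf against Inf, with no call of a member changed. Low counts limit Lbp, Saa3, Hp, and Lcn2 without Inf, and Orm1 throughout.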
